A study of Mus musculus with 18 samples.

Results

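Olfactory sensory neurons (OSNs) are replaced throughout life, and each new neuron grows an axon to the olfactory bulb before it reaches full maturity. The growth stage was followed through 10 genes, Gap43, Tubb3, Dpysl3, Dpysl5, Stmn1, Stmn2, Dcx, Cxcr4, Marcksl1 and Dbn1, in sorted cells of the mouse main olfactory epithelium (MOE). They were chosen by symbol, and all 10 were found among the 23359 symbols of the deposited table, each with 1 row. Values are in TPM, a gene's share of all transcripts after correction for transcript length, so levels of different genes can be set side by side.

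The cells came from C57BL/6 mice per the labels, although the reporting summary that goes with the study describes mixed C57BL/6J and 129 backgrounds. In the Taar5 line (TAAR5-Cre&L10-GFP, aged P11-14), Cre is made from the transcript of Taar5, a receptor for volatile amines, and turns on a green reporter; the Taar6 line (TAAR6-Cre&ZsGreen, aged P16-P17) works in the same way from Taar6. That summary also gives an older age for both lines. Reporter-positive cells gave 7 Taar5+ libraries, reporter-negative cells of the same line gave 9 control libraries, and the Taar6 line gave 1 library of each kind. All groups carried the same Cre and reporter alleles as their own controls, and controls were a mixture of cells, mostly OSNs with odorant receptors. Cre depends on receptor transcription, so the sort can label only cells that have switched the receptor locus on. It is not stated which libraries came from separate animals, so the p-values measure the spread between these libraries.

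The sort was visible in the data: Taar5 was 47.0 to 347 TPM in the 7 Taar5+ libraries and 0 to 7.71 TPM in 8 of the controls. Control library 2 was left out of that range because its Taar values are copies of those of control 1. That library listed 5891 genes above 0, whereas the other 17 listed 9784 to 17653, and the TPM table does not give the counts of reads behind its values. The mature OSN marker Omp was high in every library of the line, between 3908 and 20070 TPM.

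During axon growth, the growth cone at the axon tip is steered by the turnover of microtubules and actin. Tubb3 is a neuron-specific beta-tubulin; Dcx and the collapsin response mediator proteins (CRMPs) Dpysl3 and Dpysl5 bind or regulate microtubules, whereas the stathmins Stmn1 and Stmn2 bind free tubulin and promote disassembly. Gap43 and Marcksl1 sit at the membrane of growth cones and bind calmodulin, Dbn1 (drebrin) binds actin filaments, and Cxcr4 is the receptor of the chemokine Cxcl12. In the olfactory epithelium Gap43 marks immature OSNs and Omp marks mature ones.

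Promoter sequences were taken for the members from RefSeq (GRCm38.p6), each running from 250 bases before to 50 bases after the transcription start. An entry was matched for 6 of the 10 members: Cxcr4, Marcksl1, Dpysl5, Tubb3, Dbn1 and Dcx. Both strands were searched for TCCC and GGGA separated by any 2 bases, the palindrome bound by the Ebf (Olf-1) factors known for olfactory neuron promoters, for the E-boxes CAGCTG and CAGATG, and for TATAAA. The Ebf motif was in 0.904% of all 32851 promoter windows and, among the members, in that of Dpysl5 alone. TATAAA was in 13.6% of all windows and in those of Cxcr4 and Dcx, and neither E-box (16.3% and 17.2% of all windows) was in a member's window. The window of Dpysl5, at chr5:30711314-30711613 on the plus strand, is shown for its Ebf match, and that of Cxcr4, at chr1:128592250-128592549 on the minus strand, for its TATA match, where both strands match with an overlap. Capitals mark the matches.
Dpysl5: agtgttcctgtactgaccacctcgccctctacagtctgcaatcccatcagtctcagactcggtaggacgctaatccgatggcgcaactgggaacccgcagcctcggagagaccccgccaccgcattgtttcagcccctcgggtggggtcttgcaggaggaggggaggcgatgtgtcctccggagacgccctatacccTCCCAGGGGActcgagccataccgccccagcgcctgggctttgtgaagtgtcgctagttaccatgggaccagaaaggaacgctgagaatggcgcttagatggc
Cxcr4: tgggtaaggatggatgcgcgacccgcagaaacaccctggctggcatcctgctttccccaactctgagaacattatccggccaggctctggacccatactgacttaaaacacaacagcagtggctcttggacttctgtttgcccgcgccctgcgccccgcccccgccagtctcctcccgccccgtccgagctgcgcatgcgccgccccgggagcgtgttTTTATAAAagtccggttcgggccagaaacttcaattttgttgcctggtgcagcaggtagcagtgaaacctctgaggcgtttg
These letters describe the windows only, and no binding was measured.

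Next, the levels of the members were compared between Taar5+ and control cells. None of the 10 passed the test (limma on log2(TPM + 1), Benjamini-Hochberg adjusted p under 0.05 over 12502 genes), against 21 genes, or 0.168% of all those tested. None passed at an unadjusted p under 0.05 either, where 881 genes did. The log2 fold change (Taar5+ minus control) was below 0 for 7 of the 10 members, with a median of -0.23, whereas 48.6% of all tested genes lay below 0 and their median was 0.02. Without control 2, the library with the fewest genes above 0, 9 of the 10 members and 65.0% of 12460 tested genes lay below 0, the median of all genes was -0.17, and the calls went from 18 higher and 3 lower to 31 higher and 117 lower. Standard errors ran from 0.27 for Tubb3 to 1.01 for Dbn1, and for all members but Tubb3 and Stmn2 a change of 2-fold in one direction or the other lay inside the 95% confidence interval. For all 10 the ranges of the groups overlapped, and the groups were free of overlap for 0.144% of all tested genes.

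**Figure D1:**
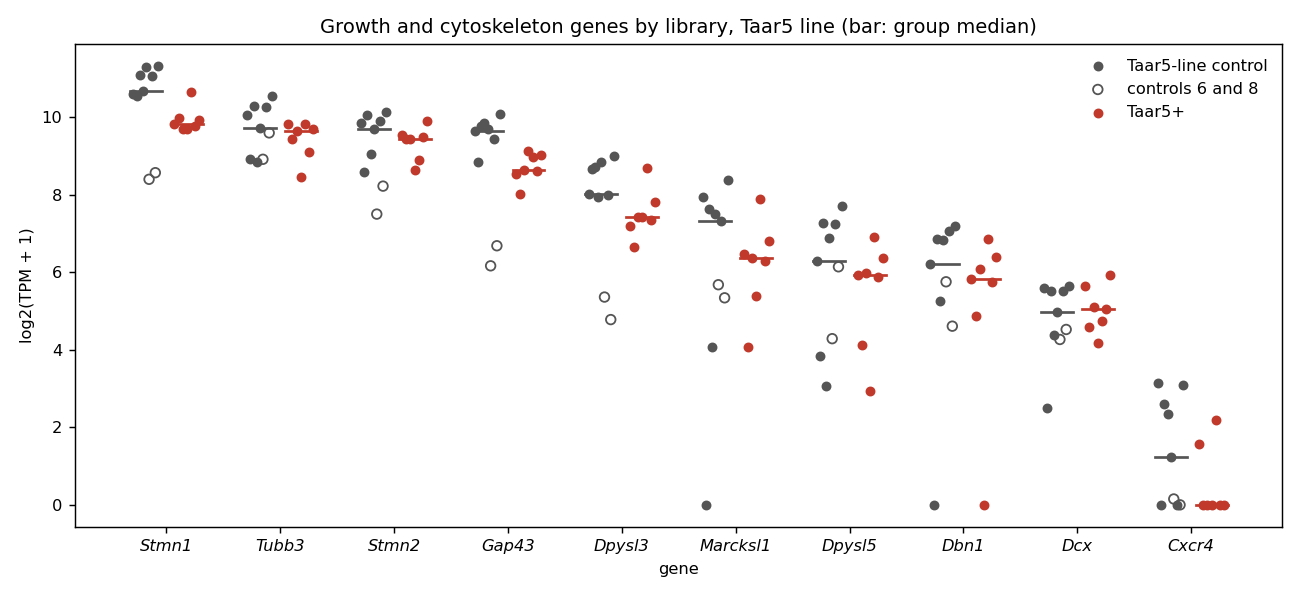
Level of each member, as log2(TPM + 1), in the 9 control (grey) and 7 Taar5+ (red) libraries of the Taar5 line. Points are libraries, bars are group medians and open circles are control libraries 6 and 8, which lie below every other library for Gap43, Stmn1, Stmn2 and Dpysl3.

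Gap43, the growth cone protein that defines immature OSNs, showed a spread of more than 10-fold among the controls. Its level was 71.0 TPM in the lowest control, 796 in the median and 1090 in the highest (mean 649 ± 361, SD, n = 9). In Taar5+ cells it was 257, 401 and 563 TPM (mean 430 ± 106, SD, n = 7). Above every Taar5+ library lay 6 of the 9 controls, 1 lay among them, and control libraries 6 and 8, at 71.0 and 102 TPM, lay below all. The log2 fold change was -0.20 (SE 0.50, 95% confidence interval -1.25 to 0.84, adjusted p = 0.981, limma). Leaving out 1 library moved it between -0.54 (without control 6) and -0.05 (without control 9), and it never passed; it was -0.48 without control 8, -0.08 without control 4 or Taar5+ library 2, and -0.09 without control 3. Leaving out control 1, 5 or 7 gave -0.11, -0.10 and -0.14. Gap43 lies on chromosome 16 at 42248442 to 42340651 on the minus strand (GRCm38, GENCODE M21).

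Stmn1, which is made in dividing progenitors and newly born neurons, was 337, 1644 and 2570 TPM in the lowest, median and highest control and 825, 917 and 1619 TPM in the Taar5+ libraries. Above every Taar5+ library lay 5 controls, and controls 6 and 8 (337 and 380 TPM) lay below all. Its log2 fold change was -0.46 (SE 0.39, interval -1.28 to 0.35, adjusted p = 0.947, limma). Under array weights, which give each library a weight from its fit over all genes, Stmn1 passed at -0.94 (limma adjusted p = 0.0498). That setting called 10.6% of all tested genes (9.18% of all tested as lower in Taar5+ cells) and moved the median of all genes to -0.16. With equal weights, Stmn1 was at -0.71 without control 6. Stmn2, found in growing axons of postmitotic neurons, was 181, 829 and 1133 TPM in controls and 398, 699 and 954 TPM in Taar5+ cells. Of the controls, 3 lay above and 3 below all Taar5+ libraries, and its log2 fold change was 0.11 (interval -0.61 to 0.83), turning to -0.10 without control 6, to -0.01 without control 8 and to -0.11 with array weights. In the annotation, 36.5% of the 50-base words of the longest Stmn1 coding transcript also occur in other genes' transcripts, mainly the pseudogene Gm11223, so its level depends on how shared reads were assigned.

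The ratio of Stmn1 to Stmn2, on the log2 scale, was 1.17 ± 0.50 (SD, n = 9) in controls and 0.60 ± 0.60 (SD, n = 7) in Taar5+ cells. In 4 of the 7 Taar5+ libraries it was below that of every control. The difference of -0.57 did not pass (two-sided exact permutation test over 11440 splits, p = 0.0573, adjusted p = 0.172 over 3 ratios). Without Taar5+ library 5, where Stmn1 and this ratio (1.75) were highest among the Taar5+ libraries, the difference was -0.77 and passed (exact permutation test, adjusted p = 0.024). No other of the 16 single-library omissions passed (exact permutation test, adjusted p from 0.0839, without control 8, to 0.353). In library 5, markers of other cells were also the highest of the Taar5+ libraries: the summed level of 7 progenitor markers was 157 TPM, against 3.31 to 26.4 in the other 6, and that of 4 sustentacular (supporting) cell markers was 12589 TPM, against 137 to 3230. Their part in the result was not tested.

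The CRMPs relay guidance signals to the microtubules of the growth cone. Dpysl3 was 26.5, 260 and 516 TPM in the lowest, median and highest control and 100, 173 and 414 TPM in Taar5+ cells; controls 8 and 6, at 26.5 and 40.1 TPM, were again below all Taar5+ libraries, and 3 controls were above them. The log2 fold change was -0.19 (SE 0.55, interval -1.35 to 0.97). Leaving out 1 library moved it between -0.56 (without control 8) and -0.03 (without control 9); without control 6 it was -0.49 and without Taar5+ library 5 it was -0.39, whereas it lay at -0.05 to -0.07 without control 2, 3 or 5 or Taar5+ library 2. Dpysl5 was lower, at 7.32, 78.1 and 209 TPM in controls and 6.62, 60.0 and 120 TPM in Taar5+ cells, with 6 controls inside the Taar5+ range. Its log2 fold change was -0.41 (SE 0.71, interval -1.91 to 1.08), and 0.00 without Taar5+ library 4, its lowest. The log2 ratio of Dpysl3 to Dpysl5 was 1.85 ± 1.96 (SD, n = 9) in controls and 2.07 ± 1.16 (SD, n = 7) in Taar5+ cells, a difference of 0.22 (two-sided exact permutation test, p = 0.754, adjusted p = 0.754). That difference turned negative when control 8 (-0.18) or Taar5+ library 4 (-0.19) was left out.

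Tubb3 had the smallest standard error of the 10 members. It was 458, 851 and 1511 TPM in controls and 351, 808 and 915 TPM in Taar5+ cells, with 4 controls above every Taar5+ library and none below. The log2 fold change was -0.26 (SE 0.27, interval -0.84 to 0.31, limma adjusted p = 0.955), but -0.10 without Taar5+ library 4 and -0.15 without control 9. Controls 6 and 8, at 483 and 775 TPM, stood inside the Taar5+ range here, unlike for Gap43. A predicted gene, Gm20388, overlaps Tubb3 on the same strand. Dcx, which stabilises microtubules in migrating and young neurons, was 4.67, 30.5 and 49.0 TPM in controls and 16.98, 32.4 and 59.7 TPM in Taar5+ cells. Its lowest value was that of control 2, and 8 controls lay inside the Taar5+ range. The log2 fold change was 0.26 (SE 0.45, interval -0.68 to 1.21), and -0.02 without control 2.

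Marcksl1, Dbn1 and Cxcr4 were listed at 0 in some libraries, so their means are not given. Marcksl1 was 0, 159 and 334 TPM in the lowest, median and highest control and 15.7, 81.0 and 237 TPM in Taar5+ cells, with the 0 in control 2. Its log2 fold change of 0.19 (SE 0.95, interval -1.79 to 2.18) became -0.56 without control 2. Dbn1 was 0, 73.0 and 145 TPM in controls and 0, 56.0 and 114 TPM in Taar5+ cells, with the zeros in control 2 and Taar5+ library 4. Its log2 fold change of -0.41 (SE 1.01, interval -2.54 to 1.71) became -1.11 without the first and 0.44 without the second. Cxcr4 was the lowest of the 10, at 0, 1.34 and 7.86 TPM in controls and listed at 0 in 5 of 7 Taar5+ libraries, where the other two had 1.98 and 3.55 TPM. Of the controls, 4 lay above every Taar5+ library and 3 were themselves at 0. The log2 fold change was -0.86 (SE 0.59, interval -2.08 to 0.37, limma adjusted p = 0.922) and -1.81 with array weights, where it passed (limma adjusted p = 0.0119) along with 10.6% of all tested genes. Cxcr4 reached 1 TPM in only 7 libraries, the minimum for testing.

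**Figure D2:**
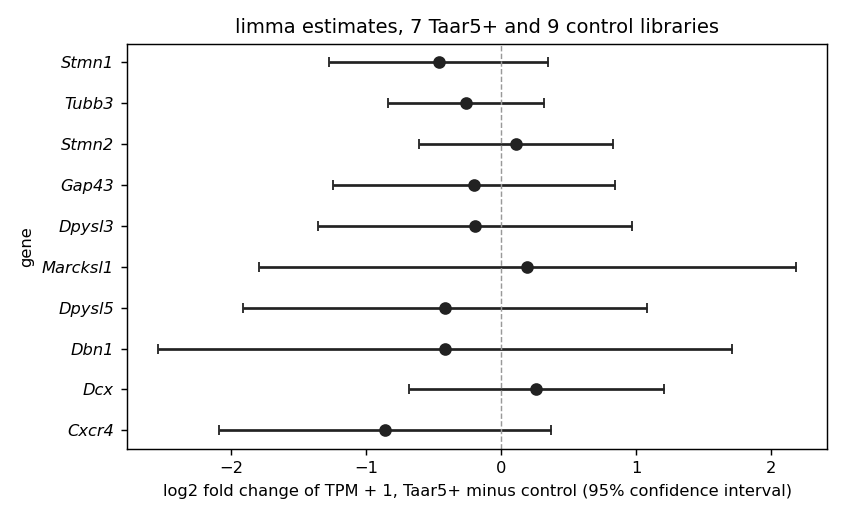
Log2 fold change of TPM + 1 (Taar5+ minus control) of the 10 members with 95% confidence intervals from limma, over 7 Taar5+ and 9 control libraries. Each interval contains 0, and those of Marcksl1 and Dbn1 are the widest, from -1.79 to 2.18 and from -2.54 to 1.71.

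The order of the levels was alike in both groups. By median it ran Stmn1, Tubb3, Stmn2, Gap43, Dpysl3, Marcksl1, Dpysl5, Dbn1, Dcx and Cxcr4 in control and in Taar5+ cells. Gap43 exceeded Dpysl3, and Dcx exceeded Cxcr4, in 9 of 9 controls and 7 of 7 Taar5+ libraries. The neighbours that changed places most often in Taar5+ cells were Tubb3 and Stmn2, with Tubb3 higher in 8 of 9 controls and in 3 of 7 Taar5+ libraries, and Dpysl5 and Dbn1, with Dpysl5 higher in 7 of 9 and 4 of 7.

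The spread among libraries was compared as a description, with no test. The SD of log2(TPM + 1) was smaller in Taar5+ than in control libraries for 9 of the 10 members, against 71.1% of all tested genes. For Gap43 it was 0.38 against 1.45 and for Stmn1 0.34 against 1.12. Without controls 6 and 8, a choice made after their values were seen, the control SDs were 0.39 for Gap43 and 0.33 for Stmn1, about those of the Taar5+ libraries, and the Taar5+ SD was the smaller for 8 of the 10 members and 72.2% of all tested genes. Without control 2, it was smaller for 8 of the 10 members, against 48.3% of tested genes. Summed over the 10 members, the level was 1252 to 7565 TPM in controls and 2376 to 4416 TPM in Taar5+ cells, and the lowest sums were those of controls 6 (1252) and 8 (1737).

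Control libraries 6 and 8 stood apart from the rest. Both were below every other library of the line for 46 of 12502 tested genes (0.368%), 4 of which were the members Gap43, Dpysl3, Stmn1 and Stmn2. Both were picked out after the members' values were seen, so these counts are a description and no test. Controls 6 and 8 also had the highest sums of 10 mature OSN markers, 48259 and 51163 TPM, against 14219 to 35871 in the other controls and 23054 to 30570 in Taar5+ cells. Not every marker followed the sum: Omp was 14715 and 20070 TPM in controls 6 and 8, 15541 TPM in control 7 and 8597 to 18195 TPM in Taar5+ cells. Stoml3, also on that list, was 8364 to 24318 TPM in controls and 2900 to 7921 TPM in Taar5+ cells (log2 fold change -1.42, limma adjusted p = 0.00994). The 7 progenitor markers summed to 11.9 and 2.19 TPM in controls 6 and 8, against 75.1 to 162 in 6 other controls and 0 in control 2. They summed to 3.31 to 26.4 TPM in 6 of the 7 Taar5+ libraries. Horizontal basal cell markers, at 112 and 118 TPM, were within the range of the other controls (0 to 123). Microvillar cell markers, at 573 and 608 TPM, were above the other controls (12.6 to 494). Fewer immature neurons and less RNA of these genes per cell cannot be told apart in such bulk samples.

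Gap43 was set against Omp to follow the balance of immature and mature OSN transcripts. Gap43 was 0.482% to 16.6% of the Omp level in controls and 1.47% to 6.55% in Taar5+ cells; controls 6 and 8 were at 0.482% and 0.508%, and the other 7 controls at 4.46% and above. The log2 ratio was -4.51 ± 1.87 (SD, n = 9) in controls and -5.09 ± 0.73 (SD, n = 7) in Taar5+ cells. The difference of -0.58 did not pass (two-sided exact permutation test, p = 0.451, adjusted p = 0.677). Leaving out 1 library moved it between -0.97 (without control 6) and -0.34 (without control 4), with -0.97 without control 8, and it never passed. In 6 of the controls Gap43 alone exceeded every Taar5+ library, as given above. The ratio of no Taar5+ library fell outside the range of the controls, whose low end was set by controls 6 and 8. Taar5+ libraries 1, 2, 3, 6 and 7 (1.47% to 3.34%) lay below all the other controls, and libraries 4 and 5 (6.55% and 4.69%) lay among them. Controls 6 and 8 were set aside here after their low Gap43 was seen, so this order is no test of a difference.

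Gap43 was then compared with each of the other 9 members across the 16 libraries, after the mean of each group was removed from log2(TPM + 1). The correlation passed for 3 of 9 members (within-group permutation test with 100000 draws, adjusted over the 9). Pearson's r was 0.92 for Stmn1 (permutation adjusted p = 0.0114), 0.91 for Dpysl3 (permutation adjusted p = 0.0114) and 0.79 for Stmn2 (permutation adjusted p = 0.013). Spearman's rho for the same genes was 0.76, 0.77 and 0.65 (permutation adjusted p = 0.0218, 0.0173 and 0.0498). Cxcr4 had r = 0.58 (permutation p = 0.0311, adjusted p = 0.07), and Tubb3, Dpysl5, Dcx, Marcksl1 and Dbn1 had r between 0.15 and 0.37. Without the 2 libraries farthest from the Gap43 median, controls 6 and 8, r fell to 0.34 for Stmn1, 0.46 for Dpysl3 and 0.25 for Stmn2, and 0 of 9 passed (lowest permutation p = 0.016 and adjusted p = 0.144, both for Marcksl1 with r = 0.67). The relations therefore passed only with those 2 libraries included. Both were picked by their distance in Gap43, so leaving them out also narrows its range, which by itself lowers r. Whether a weaker relation holds without them cannot be told from this omission. Within the 9 controls 3 passed, and within the 7 Taar5+ libraries 0 did, where r was 0.11 for Stmn1, 0.72 for Dpysl3 and -0.36 for Stmn2.

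**Figure D3:**
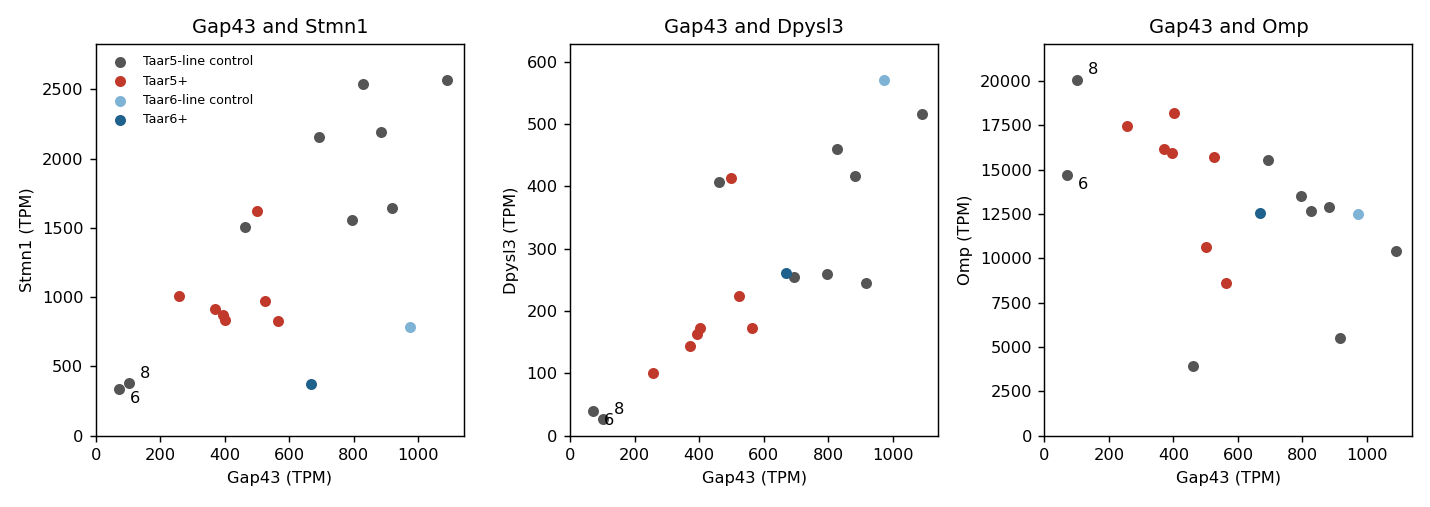
Level of Stmn1, Dpysl3 and Omp (TPM, vertical axes) against Gap43 (TPM, horizontal axes), 1 point per library, coloured by group. Control libraries 6 and 8, numbered, lie at the low end of Gap43, Stmn1 and Dpysl3 and have 14715 and 20070 TPM of Omp.

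Among 8164 tested genes with a mean of at least 10 TPM, those most like Gap43 across the 16 libraries by Spearman's rho of the group-centred values were Hist3h2ba (0.88), Frmd3 (0.87), Pigu (0.87), Smarce1 (0.86) and Hmgcs1 (0.85). Of the members, Dpysl3 ranked 48 and Stmn1 62, whereas Tubb3 ranked 1949. These are descriptions over the same libraries. Those differed in genes above 0 (5891 to 17653) and in marker sums of other cells, and the part of either was not tested.

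Relatives of the members were taken from lists of their families. The 3 other CRMP genes, Crmp1, Dpysl2 and Dpysl4, had log2 fold changes of -0.60, 0.30 and -0.36, and 0 of 5 CRMP genes passed. Crmp1 was 97.1, 138 and 316 TPM in the lowest, median and highest control and 47.2, 96.7 and 160 TPM in Taar5+ cells (limma adjusted p = 0.778). The stathmins Stmn3 and Stmn4 had log2 fold changes of 0.22 and -0.38, and 0 of 4 passed. Stmn3 was high, with medians of 880 TPM in controls and 1044 TPM in Taar5+ cells. The calmodulin- and lipid-binding proteins Basp1 and Marcks were low next to Gap43, with control medians of 6.75 and 16.4 TPM and log2 fold changes of -0.21 and 0.08.

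In the Cxcr4 system, all 3 genes had log2 fold changes below 0 and none passed. Cxcl12, the ligand, was 0, 5.57 and 72.6 TPM in controls and listed at 0 in 5 of 7 Taar5+ libraries, with 17.5 TPM as the highest (log2 fold change -2.51, SE 0.83, limma unadjusted p = 0.00726, adjusted p = 0.334). The scavenger receptor Ackr3, listed under its older symbol Cxcr7, ranged from 0 to 16.9 TPM in controls and from 0 to 43.7 TPM in Taar5+ cells. Markers of other cell types were lower at the median in Taar5+ than in control cells: the 3 horizontal basal cell markers summed to 5.01 TPM (0 to 181) against 98.0 TPM (0 to 123), the 3 microvillar cell markers to 5.73 TPM (0.266 to 175) against 122 TPM (12.6 to 608), and 6 blood and immune cell markers to 530 TPM (19.0 to 1625) against 1243 TPM (153 to 6790). The 4 sustentacular cell markers summed to 584 TPM (137 to 12589) against 1225 TPM (279 to 7058). Their median log2 fold change was 0.27, with 1 of 4 below 0. The defining basal cell gene Trp63 was listed at 0 in 4 of 7 Taar5+ libraries and 1 of 9 controls. The part of these markers in the values of Cxcr4 and Cxcl12 was not tested. The drebrin relative Dbnl had medians of 86.5 TPM in controls and 77.5 TPM in Taar5+ cells (log2 fold change 0.08). Of the doublecortin family, Dclk1, Dclk2, Dclk3 and Dcdc2a had log2 fold changes of 0.23, 0.99, -0.74 and -0.28, and 0 of 5 passed.

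Of 10 tubulins tested 0 passed, with a median log2 fold change of -0.21. The most abundant, Tuba1a, Tubb4b and Tuba1c, had log2 fold changes of -0.22, -0.11 and -0.26. The 12 microtubule-associated proteins had a median of 0.26, with Map1b at 0.40, Map6 at 0.77 and Mapre2 at 0.03, and none passed. Among 15 growth cone actin regulators (median -0.24) only Tmsb4x, which encodes the actin-sequestering thymosin beta-4, passed. It was 7286, 10855 and 11709 TPM in controls and 5224, 7020 and 8591 TPM in Taar5+ cells, with the groups overlapping. Its log2 fold change was -0.58 (SE 0.11, limma adjusted p = 0.0196); the call was lost with no filter on low values (limma adjusted p = 0.111), under quantile normalization (-0.32, limma adjusted p = 0.6), without the variance trend (limma adjusted p = 0.505) and without Taar5+ library 3, 4 or 7 (limma adjusted p = 0.0570 to 0.0636). The blood and immune cell markers given above had a median log2 fold change of -2.51, with 4 of 6 at an unadjusted p under 0.05 in limma (Lyz2 at -3.70 and Tyrobp at -3.21). Hba-a1, the most abundant of them (medians of 979 TPM in controls and 502 TPM in Taar5+ cells), was at 0.13. The horizontal basal cell markers had a median of -2.64, with 3 of 3 at that unadjusted limit, which 881 of all 12502 tested genes reached. None of these markers passed after adjustment. The part of these markers in the Tmsb4x difference was not tested. Actb and Actg1 had log2 fold changes of -0.25 and -0.27. The 6 other immature OSN markers had a median of -0.37 and none passed; the most abundant were Ncam1 (0.23), Nrep (-0.56) and Trib3 (-0.20).

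**Figure D4:**
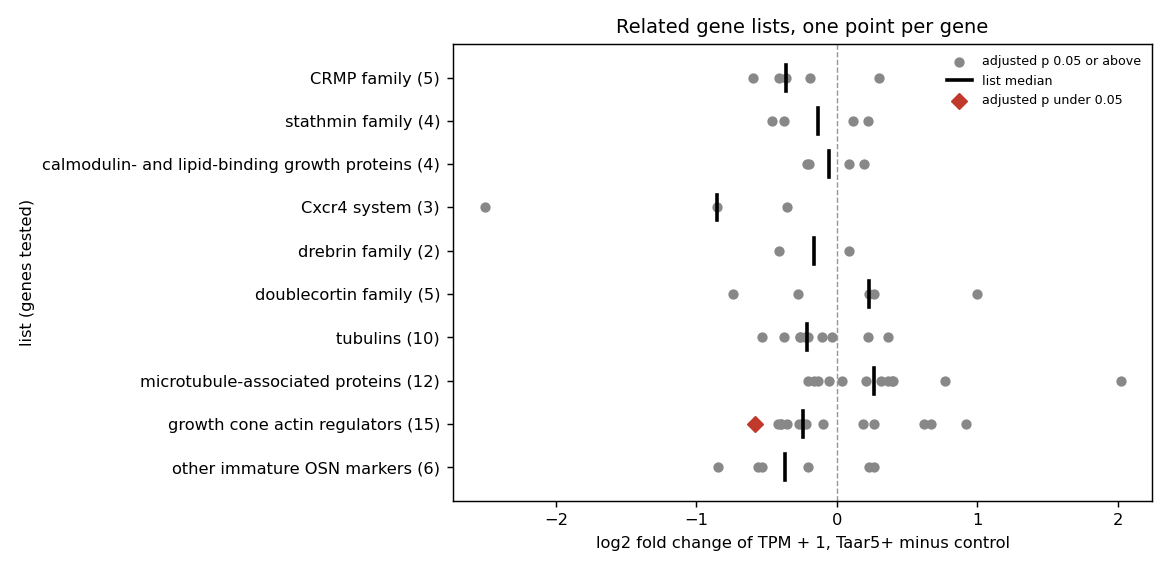
Log2 fold change of TPM + 1 (Taar5+ minus control) of each tested gene in 10 related lists, with the number tested in brackets and the list median as a black bar. Tmsb4x, a red diamond at -0.58, is the 1 gene that passed.

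In the Taar6 line, with 1 library of each kind and no replicate check, 9 of 10 members were lower in Taar6+ than in control cells, against 69.4% of the 15189 genes with at least 1 TPM in either library. The median difference on the log2(TPM + 1) scale was -0.91 for the members and -0.21 for all those genes. Cxcr4 had the largest difference, with 74.2 TPM in the control and 18.7 TPM in Taar6+ cells (-1.93). In control and Taar6+ cells, Stmn1 was 782 and 374 TPM (-1.06) and Marcksl1 was 314 and 139 TPM (-1.17). The CRMPs Dpysl3 (571 and 260 TPM, -1.13) and Dpysl5 (268 and 123 TPM, -1.11) differed by similar amounts.

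Smaller differences were found for Gap43 (973 against 668 TPM, -0.54), Stmn2 (1124 against 797 TPM, -0.50), Tubb3 (1226 against 723 TPM, -0.76) and Dbn1 (180 against 121 TPM, -0.57). Dcx was the exception, at 207 TPM in Taar6+ and 175 TPM in control cells (0.24). Omp was 12534 and 12514 TPM. The 7 progenitor markers summed to 47.7 TPM in Taar6+ and 175 TPM in control cells, whose part in these differences was not tested. Dcx and Cxcr4 were above every library of the Taar5 line in both Taar6-line libraries, where line, reporter and age cannot be told apart.

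**Figure D5:**
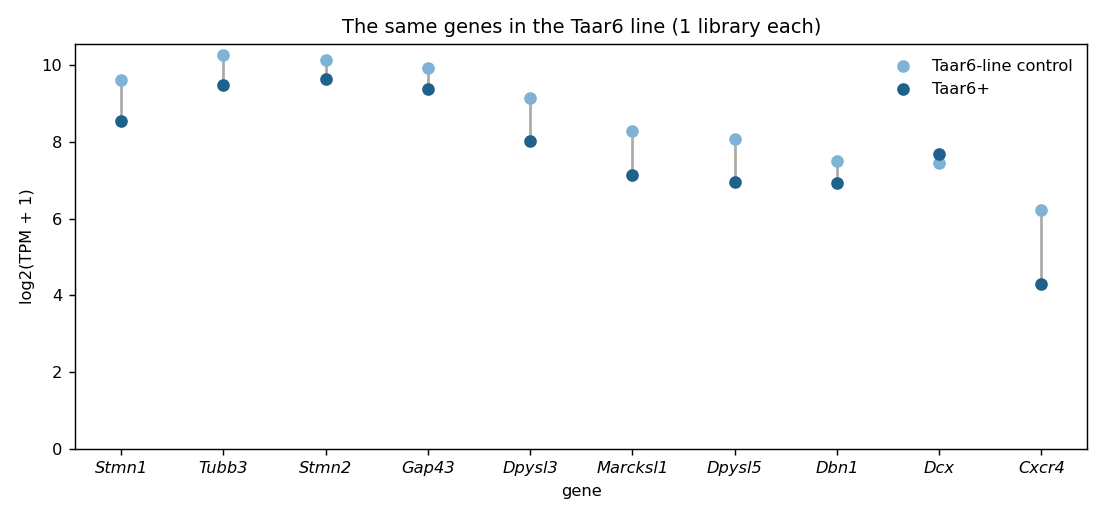
Level of the 10 members, as log2(TPM + 1), in the Taar6-line control (light blue) and Taar6+ (dark blue) library, 1 library each and no error. The Taar6+ point is the lower of the pair for 9 genes and the higher for Dcx (207 against 175 TPM).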

How the data were processed

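The authors sorted cells by FACS, made Smart-seq2 libraries, mapped reads with HISAT2 2.1.0 and quantified with Cufflinks 2.2.1 (submitters' processing notes; builds mm10 and GRCm38). The deposited table holds TPM for 18 libraries. TPM is a share of a library, so a rise in abundant transcripts lowers all others; PCR duplicates, strand and the treatment of shared reads are not stated. TPM does not keep read depth, and the reads were not used here.

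Rows sharing a symbol were summed. Genes that reached 1 TPM in 7 or more of the 16 Taar5-line libraries were tested on log2(TPM + 1) with limma 3.58.1 in R 4.3.3 (eBayes with trend, Benjamini-Hochberg, threshold 0.05); fold changes of low genes are understated on that scale. The 13 Taar values of control 2 that equal those of control 1 were set to missing. Ratios used exact permutation, and lists were only counted. Scripts were tested on simulated data. Named were all members, all genes of the small families, the 3 most abundant and any called gene of the larger lists, and the 5 genes most like Gap43. The members and lists were chosen with earlier results of these data known. Positions and shared words came from GENCODE M21.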

Additional observations from a re-analysis of the deposited data

Results flagged for a closer look

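In groups of 7 and 9 libraries, 26 sets of values were screened for a single value far from the others (Dixon's 95% limit), of which chance alone gives about 1.3; 4 were found. Taar5+ library 5 stood high for Dpysl3 (414 TPM, the other 6 at 100 to 224), Stmn1 (1619 TPM, the others at 825 to 1011) and Marcksl1 (237 TPM, the others at 15.7 to 111). Taar5+ library 4 stood high in the log2 ratio of Dpysl3 to Dpysl5 (4.51, the others at 1.25 to 2.54); it listed 9784 genes above 0, the fewest of the Taar5+ libraries.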

How the results depend on the processing

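The 21 genes called became 36 under quantile normalization, 1329 under array weights, 12 with the replicate block, and 16 to 148 when 1 library was left out (148 without control 2, 31 of them higher and 117 lower, and 66 without Taar5+ library 5). The number of members called was 2 under array weights (Stmn1 at -0.94 and Cxcr4 at -1.81) and 0 in every single-library omission. Quantile normalization and array weights moved the median log2 fold change of all genes to 0.17 and -0.16, and the split of calls to 28 higher and 8 lower, and 181 and 1148, from 18 and 3. Directions turned under array weights for Stmn2 (-0.11) and Marcksl1 (-0.94) and with 10 controls for Dcx (-0.0071) and Marcksl1 (-0.038). Leaving out 1 library gave these ranges of log2 fold change: Gap43 -0.54 to -0.053, Stmn1 -0.71 to -0.35, Dpysl3 -0.56 to -0.030, Tubb3 -0.37 to -0.099, Cxcr4 -1.03 to -0.77 (9 of 16 omissions), Dpysl5 -0.77 to 0.0045, Stmn2 -0.10 to 0.23, Dcx -0.022 to 0.41, Marcksl1 -0.56 to 0.55 and Dbn1 -1.11 to 0.44. The ratio of Gap43 to Omp ranged from -0.97 to -0.34, that of Stmn1 to Stmn2 from -0.77 to -0.48 and that of Dpysl3 to Dpysl5 from -0.19 to 0.60, with -0.32 under the replicate block. Of these omissions, only that of Taar5+ library 5 passed, for Stmn1 to Stmn2. The causes were not tested. Of the correlations with Gap43, 0 passed in Taar5+ cells alone, where r turned to -0.26 for Tubb3, -0.36 for Stmn2 and -0.26 for Dbn1. Same-numbered libraries correlated by -0.01 to 0.28, not all above 0.1, and 3 of 7 Taar5+ libraries correlated best with their own number. The numbers were not taken as pairs, but it is not stated whether same-numbered libraries share a sort. With the replicate block the SE was smaller for every member (0.16 for Tubb3, 0.36 for Dpysl5), and no member passed. Stmn1 was then at -0.59, and the differences were -0.84 for Gap43 to Omp and -0.69 for Stmn1 to Stmn2, neither of which passed. Under the replicate block Tmsb4x (-0.56) no longer passed. Cxcr4 could not be tested where fewer than 7 libraries reached the minimum. The TPM table does not give the read depth behind low genes such as Cxcr4.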
